A study of Mus musculus with 18 samples.

Results

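Mitosis and the G2/M step of the cell cycle were followed through 42 genes, chosen by name from the 13787 genes that the 3 deposited tables list between them. The genes fell into 5 roles: 12 cyclins, kinases, phosphatases and parts of the anaphase-promoting complex (APC/C) pathway, 9 spindle genes, 13 kinetochore, checkpoint and passenger complex genes, 6 cytokinesis genes and 2 chromosome genes. All 42 were listed in all 3 tables, so none was lost to a filter on low counts, and their raw counts ran from 362 to 34385 per library where counts were deposited. The samples were 18 libraries of mouse acute myeloid leukemia (AML) driven by MLL/ENL and Nras, 3 in each of 6 groups. The groups were p53null AML with 10 h of CX-5461, p53null AML with 10 h of vehicle, p53WT AML with 10 h of CX-5461, p53WT AML with 10 h of vehicle, p53WT AML with 72 h of CX-5461 and p53WT AML with 72 h of vehicle. CX-5461 is an inhibitor of RNA polymerase I, the enzyme that transcribes ribosomal RNA. In every group the AML cells grew in C57BL/6 recipients with established disease and were isolated from the marrow by their GFP signal. The recipients kept their own marrow cells, and neither the ages of the mice, the dose, the promoter behind the oncogenes nor the number of animals or leukemia clones is given in the labels. The 10 h titles carry different tags for the genotypes, so that genotype and leukemia clone cannot be told apart.

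Cells commit to mitosis when cyclin B switches on the kinase CDK1, helped by CDC25 phosphatases and by Aurora A and PLK1. Spindle and kinetochore proteins then attach and align the chromosomes under the watch of the checkpoint, until APC/C with CDC20 and the E2 enzyme UBE2C marks cyclin B and securin for destruction and cytokinesis divides the cell. Most of these genes are transcribed late in the cycle from promoters that carry CCAAT boxes, bound by NF-Y, and a cell cycle homology region (CHR), bound by the DREAM and B-MYB-MuvB complexes. In cells with active p53, the CDK inhibitor p21, encoded by Cdkn1a, holds the DREAM complex in its repressive form.

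Counts were used for the p53WT libraries of 10 h, with 21578685 to 37244725 counts in CX libraries and 22090394 to 48118513 in vehicle libraries over the listed genes. The depth behind the tables for p53null AML and for 72 h is unknown, and those tables give no value per library. Trp53, the gene for p53, averaged 61.5 CPM (counts scaled to the library total) in p53null AML, against 169 and 163 CPM in p53WT AML at 10 h and 72 h, in the authors' deposited tables, each normalised on its own. All 10 AML markers were measured, and their summed level was 17863 to 17953 CPM in CX libraries and 14198 to 17697 CPM in vehicle libraries. Erythroid markers stood apart in the vehicle libraries. Their summed level over 15 genes was 247, 452 and 354 CPM in CX libraries 1, 2 and 3, against 5777, 19808 and 639 CPM in vehicle libraries 1, 2 and 3. Summed neutrophil markers (14 genes) were at 4831, 5833 and 4932 CPM in CX libraries, against 12671, 22455 and 10356 CPM in vehicle libraries. None of these markers was at 0. In sorted bulk cells, fewer cells of a type and less RNA per cell cannot be told apart.

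In p53null AML few genes passed the test after 10 h of CX-5461, and most of those called higher were mitotic genes. All 42 members had a positive log2 fold change in the authors' deposited table, where 49.2% of all 12861 genes had one. The authors' deposited table called 11 members higher at a false discovery rate (FDR) under 0.05 and 0 lower, against a background of 0.148% of all genes called higher (19 genes) and 0.0389% called lower (5 genes). The 11 members thus made up 57.9% of the genes called higher and 26.2% of the members. At an unadjusted p under 0.05, edgeR in the authors' deposited table had 33 members higher and 0 lower, against 3.15% and 2.92% of all genes. The log2 fold changes ran from 0.05 for Cenpe to 0.47 for Ube2c with a median of 0.22 in the authors' deposited table, whose median over all genes was -0.00. Of all genes in the authors' deposited table, 4.61% lay above the members' median and 29.5% above the lowest member. Positive values were read as higher with CX-5461. On the counts of p53WT AML at 10 h this orientation was that of the ratio of mean CPM across genes, and at 72 h it put the p53 target Cdkn1a higher, but the p53null table holds no counts on which to check it. Every direction given for p53null AML rests on this reading, and with the sign turned all 42 members would be negative and the 11 calls lower. Cdkn1a itself stood at a log2 fold change of -0.03 (FDR 1) in the authors' deposited p53null table.

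The increases with CX-5461 were led by Ube2c and Kpna2, which had the smallest p-values of the whole p53null table. Ube2c, the E2 enzyme of APC/C, was 1.38-fold higher and Kpna2, an importin that carries spindle assembly factors, was 1.30-fold higher in the authors' deposited table, both with an FDR of 2.76e-07. To show promoter elements that most of these genes share, the stretch from 120 bases before to 30 after the annotated start is printed. It is given for Ube2c, Kpna2, Ccnb1, Aurka and Cdk1, which were called higher in p53null AML. Cdc25b had a smaller FDR than Cdk1 in the authors' deposited p53null table (0.00235 against 0.00308). Its promoter, with a CCAAT box but no CHR, is not printed. Kif23 and Psrc1 follow as the members that passed the test in p53WT AML at 10 h. Sequences are 5′ to 3′ on the gene's strand, from RefSeq on the GRCm38.p6 build, which is not the mm9 build of the counts. The stretches lie at chr2:164769809-164769958 (Ube2c, plus strand), chr11:106999496-106999645 (Kpna2, minus strand), chr13:100786457-100786606 (Ccnb1, minus strand) and chr2:172370541-172370690 (Aurka, minus strand). The others lie at chr10:69352883-69353032 (Cdk1, minus strand), chr9:61946770-61946919 (Kif23, minus strand) and chr3:108383684-108383833 (Psrc1, plus strand). Each is a promoter with the first bases of the transcript. Capitals mark a CHR (TTTGAA or TTTAAA, on either strand) or a CCAAT box (CCAAT, on either strand). TTTAAA reads the same on both strands, and no printed CHR shares a base with a printed CCAAT box.
Ube2c: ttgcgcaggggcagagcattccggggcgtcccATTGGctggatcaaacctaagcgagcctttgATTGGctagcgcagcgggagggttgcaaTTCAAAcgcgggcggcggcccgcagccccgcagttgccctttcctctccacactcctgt
Kpna2: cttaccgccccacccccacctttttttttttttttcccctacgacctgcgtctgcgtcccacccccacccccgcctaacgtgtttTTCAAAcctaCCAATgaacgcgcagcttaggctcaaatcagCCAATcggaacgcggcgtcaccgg
Ccnb1: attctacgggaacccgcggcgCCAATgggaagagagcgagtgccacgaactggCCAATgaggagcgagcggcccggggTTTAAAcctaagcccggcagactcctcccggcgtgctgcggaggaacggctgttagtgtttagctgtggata
Aurka: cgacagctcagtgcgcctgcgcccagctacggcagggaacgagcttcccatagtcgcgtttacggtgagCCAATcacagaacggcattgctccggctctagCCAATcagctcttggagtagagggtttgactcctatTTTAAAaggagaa
Cdk1: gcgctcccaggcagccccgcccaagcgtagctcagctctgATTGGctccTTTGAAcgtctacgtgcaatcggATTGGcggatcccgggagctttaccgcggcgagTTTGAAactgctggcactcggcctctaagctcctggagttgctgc
Kif23: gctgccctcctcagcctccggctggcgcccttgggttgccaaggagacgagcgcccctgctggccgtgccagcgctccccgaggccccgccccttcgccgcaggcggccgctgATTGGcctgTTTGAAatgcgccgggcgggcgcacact
Psrc1: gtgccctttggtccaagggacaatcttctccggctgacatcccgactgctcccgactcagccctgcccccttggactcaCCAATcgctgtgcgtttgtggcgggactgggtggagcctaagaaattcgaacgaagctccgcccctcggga

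The 5 cell cycle promoters printed first each hold a CHR and CCAAT boxes, that of Kif23 holds a CHR and 1 CCAAT box, and that of Psrc1 holds a CCAAT box without a CHR in its printed stretch. A promoter sequence was found for 35 of the 42 members, and Ccna2, Cdc25c, Tpx2, Dlgap5, Aurkb, Incenp and Kif20a had no match in the table. Over 250 bases before to 50 after the start, 82.9% of the 35 members had a CHR, against 30.6% of all 27025 genes with a promoter in the table. A CCAAT box was found in 82.9% of the members and in 41.1% of all genes, and both elements were found in 71.4% and 12.2%. At least 2 CCAAT boxes were present in 60.0% of the members and in 13.3% of all genes. Of the 9 members called higher in p53null AML that had a promoter, 8 had a CHR and 9 a CCAAT box, against 21 and 20 of the 26 that were not called. The exception among the 9 was Cdc25b, which had no CHR in its window. Mad2l1 and Nusap1 held neither motif there. The motifs were read by their letters alone and were not tested as binding sites.

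Genes that drive entry into and exit from mitosis supplied 5 of the 11 calls in p53null AML. In the authors' deposited p53null table, 0 of these 12 genes were called lower, and the median log2 fold change was 0.24. In p53WT AML at 10 h all 12 had a negative log2 fold change with a median of -0.16, and edgeR's quasi-likelihood test called 0 of them in either direction after Benjamini-Hochberg adjustment (4 lower and 0 higher at an unadjusted p under 0.05, which 16.7% and 14.7% of all genes had). Among all 42 members that test called 1 lower and 1 higher in p53WT AML at 10 h, against backgrounds of 4.32% lower and 3.78% higher. The p53null calls rest on the authors' FDR instead. By that FDR, the authors' deposited p53WT table for 10 h called 1 of the 12 and 2 of the 42 lower (6.83% of all genes). It called 0 and 1 higher (3.57% of all genes).

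Ccnb1, cyclin B1, the activating subunit of CDK1, was 1.33-fold higher with CX-5461 in the authors' deposited p53null table (log2 fold change 0.41, FDR 0.000172). In p53WT AML it was measured at 117, 117 and 129 CPM in CX libraries 1, 2 and 3, against 136, 128 and 113 CPM in vehicle libraries 1, 2 and 3. These groups overlapped, with vehicle library 3 below all CX libraries. Cdk1, the kinase itself, was higher in the p53null comparison too (log2 fold change 0.27, FDR 0.00308 in the authors' deposited table). Its levels in p53WT AML were 155, 157 and 155 CPM in CX libraries, against 161, 174 and 147 CPM in vehicle libraries, and they overlapped again through vehicle library 3. By the Benjamini-Hochberg adjusted quasi-likelihood test of edgeR, the p53WT log2 fold changes were -0.06 for Ccnb1 (SE 0.0780, adjusted p 0.658) and -0.05 for Cdk1 (SE 0.0651, adjusted p 0.644).

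Aurka, which encodes the centrosomal kinase Aurora A, had a log2 fold change of 0.38 (FDR 0.00044) in the authors' deposited p53null table. In p53WT AML its 3 CX libraries were at 89.7, 91.5 and 96.3 CPM, against 108, 106 and 92.9 CPM in the 3 vehicle libraries, again overlapping in vehicle library 3. Ube2c in p53WT AML was at 97.3, 93.0 and 113 CPM in CX libraries and at 116, 129 and 94.8 CPM in vehicle libraries. The Ube2c groups overlapped, with vehicle library 3 between CX libraries 2 and 1. The p53WT log2 fold changes were -0.14 for Aurka (SE 0.0684, adjusted p 0.198) and -0.17 for Ube2c (SE 0.123, adjusted p 0.384) in the edgeR quasi-likelihood test.

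Cdc25b encodes a phosphatase that activates CDK1. It was 1.36-fold higher with CX-5461 in the authors' deposited p53null table (log2 fold change 0.44, FDR 0.00235). In p53WT AML it was at 29.2, 30.3 and 31.5 CPM in CX libraries, against 49.6, 89.1 and 28.8 CPM in vehicle libraries. The CX libraries lay close together, while the vehicle libraries were highest in library 2 and lowest in library 3. Erythroid markers had that order too, as did 18 of the 42 members and 7 of the 12 genes of this role. The share of all genes with that order was not counted, and 21 members were highest in vehicle library 1. The log2 fold change of Cdc25b in p53WT AML was -0.88 (SE 0.359, adjusted p 0.147 in the edgeR quasi-likelihood test). The authors' deposited table called it lower there (FDR 0.0312), the quasi-likelihood test called it lower without vehicle library 3 (-1.19, adjusted p 0.034), and a fit that included the erythroid level gave 0.76 (adjusted p 0.288).

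The remaining 7 genes of this role did not pass the authors' FDR in p53null AML or edgeR's quasi-likelihood test in p53WT AML at 10 h. Plk1, a kinase of mitotic entry and the spindle, had a log2 fold change of 0.24 (FDR 0.278) in the authors' deposited p53null table. In p53WT AML it was at 89.5, 96.5 and 114 CPM in CX libraries, against 129, 121 and 113 CPM in vehicle libraries, with an overlap between CX library 3 and vehicle library 3. Ccnb2, cyclin B2, was at 122, 118 and 129 CPM in CX libraries, against 158, 160 and 125 CPM in vehicle libraries of p53WT AML. Cdca3, a regulator of mitotic entry, was at 92.5, 92.2 and 104 CPM in CX libraries and at 121, 145 and 100.4 CPM in vehicle libraries. In both genes vehicle library 3 fell within the CX range. The adjusted p of edgeR's quasi-likelihood test in p53WT AML was 0.104 for Plk1 (-0.28), 0.123 for Ccnb2 (-0.26) and 0.126 for Cdca3 (-0.34). DESeq2 called Plk1 and Cdca3 lower (adjusted p 0.0399 and 0.0462), and without vehicle library 3 the edgeR quasi-likelihood test called Ccnb2 and Cdca3 lower (adjusted p 0.0208 and 0.0387). Ccnb2 and Cdca3 had log2 fold changes of 0.20 and 0.14 in the authors' deposited p53null table (FDR 0.250 and 0.590). The other 4, cyclin A2 (Ccna2), Cdc25c, the centrosome kinase Nek2 and the APC/C activator Cdc20, ran from 0.17 to 0.25 in the authors' deposited p53null table, against -0.21 to -0.02 in p53WT AML at 10 h.

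**Figure D1:**
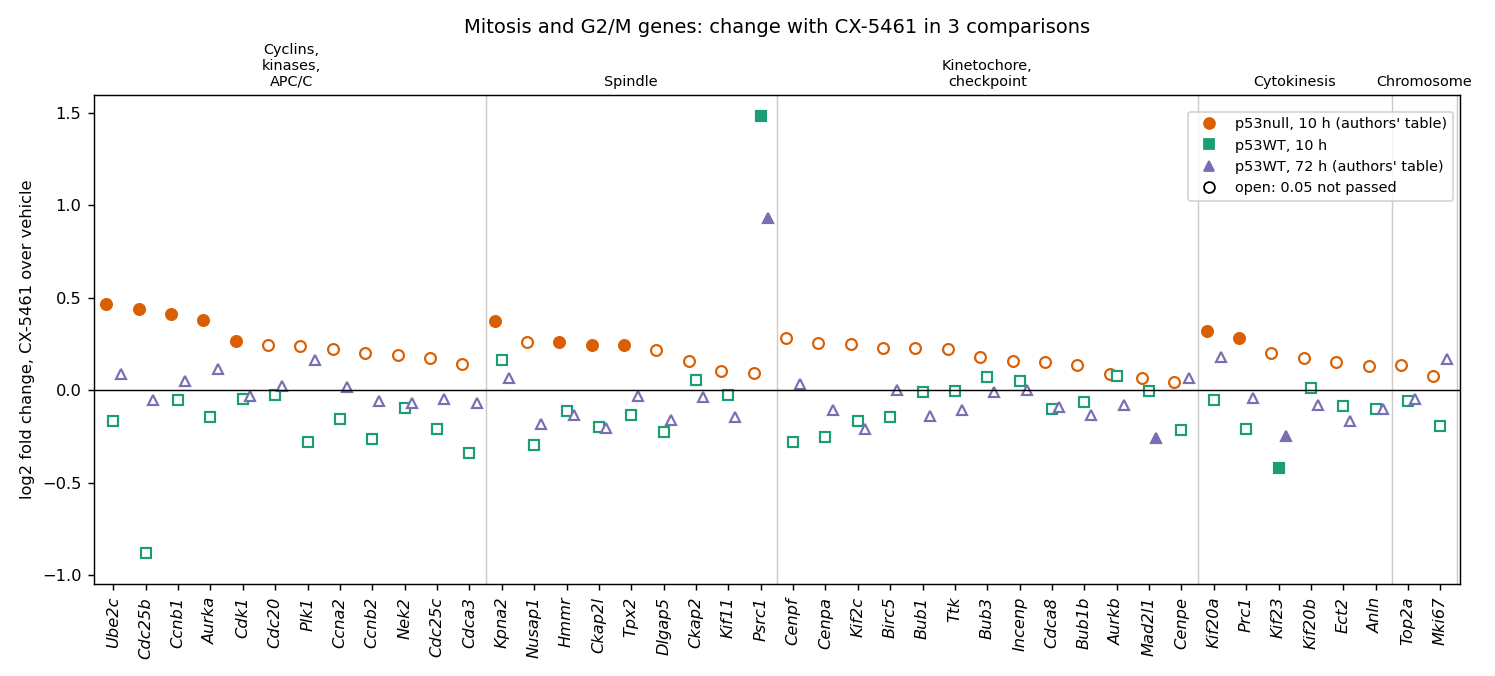
Log2 fold change, CX-5461 over vehicle, of each of the 42 members, grouped by role. Values are at 10 h in p53null AML (authors' deposited table), at 10 h in p53WT AML (edgeR quasi-likelihood fit) and at 72 h in p53WT AML (authors' deposited table). Filled points passed the threshold of 0.05. The p53null values of all 42 members are positive, while 35 of the p53WT values at 10 h are negative. Psrc1 is the 1 member with a higher value in p53WT than in p53null AML at 10 h.

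Spindle genes supplied 4 of the 11 calls in p53null AML, out of 9 members with a median log2 fold change of 0.24 in the authors' deposited table. Besides Kpna2 these were Hmmr (0.26, FDR 0.0083), a spindle assembly protein, Tpx2 (0.24, FDR 0.0129), the activator of Aurora A, and Ckap2l (0.24, FDR 0.0305), a microtubule-associated protein, all in the authors' deposited table. In p53WT AML at 10 h the median was -0.11, with 6 of 9 negative. Kpna2 was one of the exceptions, at 159, 166 and 178 CPM in CX libraries, against 161, 145 and 143 CPM in vehicle libraries. Its groups overlapped through CX library 1 and vehicle library 1 (log2 fold change 0.16, adjusted p 0.151 in the edgeR quasi-likelihood test).

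Several spindle genes separated the groups in p53WT AML without passing the test. Dlgap5, a microtubule-stabilising protein of the spindle, was at 89.0, 91.9 and 99.1 CPM in CX libraries, against 109, 113 and 106 CPM in vehicle libraries. Ckap2l was at 85.6, 88.0 and 95.3 CPM in CX libraries and at 102, 106 and 101 CPM in vehicle libraries. Hmmr was at 93.9, 95.4 and 101 CPM in CX libraries and at 107, 104 and 102 CPM in vehicle libraries. In these 3 genes, and in Nusap1, all CX libraries lay below all vehicle libraries. Tpx2 overlapped, with 181, 190 and 203 CPM in CX libraries and 218, 213 and 199 CPM in vehicle libraries. The edgeR quasi-likelihood test gave log2 fold changes and adjusted p of -0.23 and 0.0528 for Dlgap5, -0.20 and 0.0648 for Ckap2l, -0.11 and 0.169 for Hmmr and -0.13 and 0.192 for Tpx2. Over all members, 9 of 42 had every CX library below every vehicle library, which 19.1% of all genes had, and 1 had every CX library above, which 19.9% of all genes had. The 9 thus occurred at about the background share. They were spindle (4), cytokinesis (3) and kinetochore (2) genes, and none of the 12 cyclin, kinase and APC/C genes was among them.

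Psrc1 is a microtubule-binding protein of the spindle and is known as a p53 target in mouse cells. In p53WT AML at 10 h it was the 1 member called higher by edgeR's quasi-likelihood test. It was at 45.8, 47.8 and 50.7 CPM in CX libraries, against 17.7, 15.2 and 18.6 CPM in vehicle libraries. All CX libraries lay above all vehicle libraries, with means of 48.1 ± 2.50 and 17.2 ± 1.78 CPM (SD, n = 3 each). The log2 fold change was 1.48 (SE 0.0898, adjusted p 0.000715, edgeR quasi-likelihood test, Benjamini-Hochberg adjusted), and it was called higher under all 15 alternative settings. At 72 h it was 1.91-fold higher in the authors' deposited table (FDR 1.3e-20). In p53null AML its log2 fold change was 0.09 (FDR 1) in the authors' deposited table, at a mean of 6.80 CPM, against 32.6 CPM in the authors' deposited p53WT table for 10 h.

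Among kinetochore, checkpoint and passenger complex genes, none of the 13 passed in p53null AML. All 13 were positive there, with a median of 0.18 in the authors' deposited table. At an unadjusted p under 0.05, edgeR in that table had 10 of them higher and 0 lower, against 3.15% and 2.92% of all genes. Those with the smallest p in the authors' deposited table were the microtubule depolymerase Kif2c (0.25, FDR 0.0805), survivin, Birc5 (0.23, FDR 0.0864), and the checkpoint kinase Bub1 (0.23, FDR 0.163). The motor Cenpe was the lowest of all 42 members there (0.05, FDR 1 in the authors' deposited table). In p53WT AML at 10 h the median of the 13 was -0.06, with 10 negative and 0 called by edgeR's quasi-likelihood test (3 lower and 0 higher at an unadjusted p under 0.05, beside the 16.7% and 14.7% of all genes).

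Cenpe was at 111, 111 and 122 CPM in CX libraries of p53WT AML, against 143, 125 and 131 CPM in vehicle libraries. Cenpf, a large kinetochore protein, was at 66.4, 65.0 and 77.3 CPM in CX libraries, against 89.98, 85.6 and 77.5 CPM in vehicle libraries. All CX libraries lay below all vehicle libraries in both, for Cenpf by a small margin. Cenpa, the centromeric histone H3 variant, was at 88.4, 83.7 and 95.3 CPM in CX libraries, against 111, 117 and 90.4 CPM in vehicle libraries, and overlapped. The edgeR quasi-likelihood test gave adjusted p of 0.0811 for Cenpe (-0.22), 0.0817 for Cenpf (-0.28) and 0.144 for Cenpa (-0.25). Mad2l1, which encodes the checkpoint protein MAD2, was level at this time, with 110.5, 118 and 111 CPM in CX libraries and 115, 119 and 106 CPM in vehicle libraries (log2 fold change -0.01, SE 0.0573, adjusted p 0.953 in the same test).

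Cytokinesis genes gave 2 of the calls in p53null AML: the motor Kif20a (log2 fold change 0.32, FDR 0.00894) and the midzone microtubule bundler Prc1 (0.28, FDR 0.0295) in the authors' deposited table. All 6 were positive, with a median of 0.19 in the authors' deposited table. Kif23, a motor of the centralspindlin complex, was the 1 member called lower in p53WT AML at 10 h by edgeR's quasi-likelihood test. It was at 75.4, 69.8 and 79.3 CPM in CX libraries, against 98.8, 104.7 and 96.8 CPM in vehicle libraries. The groups were well separated, with means of 74.8 ± 4.81 and 100.1 ± 4.14 CPM (SD, n = 3 each), and CX-5461 took it to 0.748-fold. The log2 fold change was -0.42 (SE 0.0626, adjusted p 0.0265, edgeR quasi-likelihood test, Benjamini-Hochberg adjusted). Without CX library 1, 2 or 3 its log2 fold change was -0.42, -0.38 and -0.46 (adjusted p 0.158, 0.143 and 0.0871), and with the erythroid level as a covariate it was -0.30 (adjusted p 0.445). It did not pass in these edgeR fits, which called 1, 0, 0 and 0 genes lower in the whole table. In p53null AML it stood at 0.20 (FDR 0.459) in the authors' deposited table.

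Prc1 in p53WT AML was at 120.2, 127 and 134 CPM in CX libraries, against 143, 156 and 141 CPM in vehicle libraries. Anln, the contractile ring scaffold anillin, was at 118, 115 and 121 CPM in CX libraries, against 125, 129 and 126 CPM in vehicle libraries. Both had every CX library below every vehicle library and neither passed edgeR's quasi-likelihood test (-0.21, adjusted p 0.0742 for Prc1, and -0.10, adjusted p 0.158 for Anln). Kif20a overlapped, at 77.0, 82.4 and 90.8 CPM in CX libraries and 91.3, 83.0 and 84.4 CPM in vehicle libraries (-0.05, adjusted p 0.670 in that test). The kit did not mark strand. The transcripts of Kif20a and Prc1 overlap those of Cdc23 and Rccd1 on the other strand, which had log2 fold changes of 0.16 (FDR 0.519) and -0.04 (FDR 1) in the authors' deposited p53null table.

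The proliferation marker Mki67 and the topoisomerase Top2a, a decatenase of sister chromosomes, passed in neither genotype. Their log2 fold changes were 0.08 (FDR 0.999) and 0.14 (FDR 0.854) in the authors' deposited p53null table. In p53WT AML Mki67 was at 573, 543 and 634.3 CPM in CX libraries, against 689, 676 and 633.9 CPM in vehicle libraries. Top2a was at 660.5, 674 and 720.0 CPM in CX libraries, against 716, 686 and 737 CPM in vehicle libraries. The groups overlapped in both genes, and edgeR's quasi-likelihood test gave adjusted p of 0.128 for Mki67 (-0.19) and 0.532 for Top2a (-0.06).

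**Figure D2:**
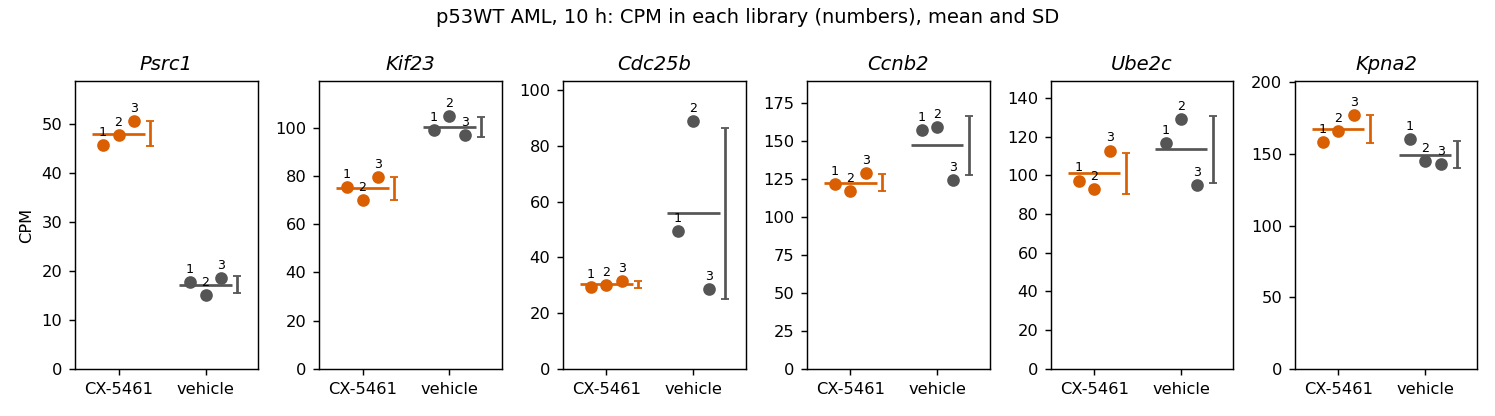
Normalised CPM of members named in the text in each library of p53WT AML at 10 h, 3 CX libraries left of 3 vehicle libraries, with the group means as bars. Psrc1 and Kif23 are the members whose groups are far apart, and in the plotted cyclin and kinase genes vehicle library 3 lies at or below the highest CX library.

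Set side by side, 41 of 42 members had a higher log2 fold change in p53null than in p53WT AML at 10 h, the exception being Psrc1. Of the 11879 genes in both tables, 6000 had a higher value in p53null AML. With the erythroid level in the p53WT fit, 36 of 42 members had the higher value in p53null AML. The median p53null minus p53WT difference was then 0.16, in a fit whose covariate itself parts CX from vehicle libraries. A positive value in p53null (the authors' deposited table) with a negative one in p53WT AML was found in 35 of 42 members, or 83.3%, against 26.2% of the 11879 genes in both tables. With the erythroid level in the fit 20 of 42 p53WT values were negative, and with 1 library left out 30 to 36 were. If the p53null sign were turned, 7 of 42 members would differ in sign between genotypes, 35 would be negative in both, and 10 would have the higher value in p53null AML, with a median difference of -0.08. As deposited, the positive and negative pair was found in all 12 cyclin, kinase and APC/C genes, 6 of 9 spindle, 10 of 13 kinetochore, 5 of 6 cytokinesis and both chromosome genes. The p53null minus p53WT difference had a median of 0.34 over the members and 0.00 over all genes. By role it was 0.47 for cyclins, kinases and APC/C, 0.37 for spindle, 0.24 for kinetochore, 0.30 for cytokinesis and 0.23 for chromosome genes. The comparisons share no library. The difference between genotypes was not tested, because it needs values per library for p53null AML.

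**Figure D3:**
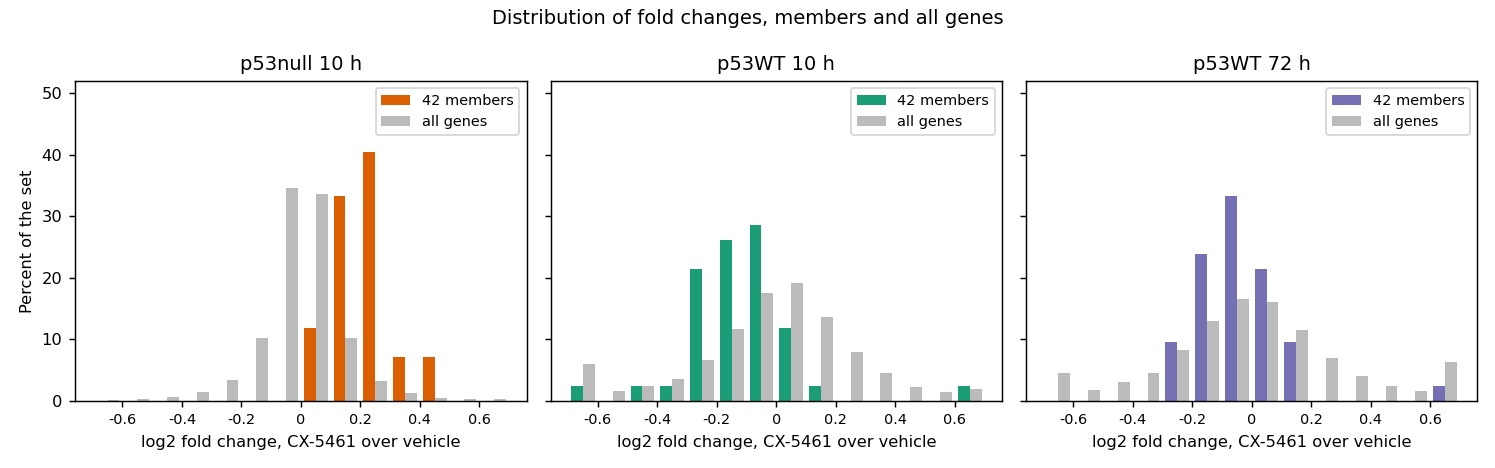
Share (percent) of the 42 members and of all genes in each bin of log2 fold change, CX-5461 over vehicle, at 10 h in p53null and in p53WT AML and at 72 h in p53WT AML. In p53null AML 40.5% of the members and 3.24% of all genes lie between 0.2 and 0.3, and no member lies below 0.

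The levels of the members in p53WT AML differed between libraries of the same group. Relative to the CX mean, the members' median log2 CPM was -0.05, -0.03 and 0.08 in CX libraries 1, 2 and 3, and 0.15, 0.14 and 0.02 in vehicle libraries 1, 2 and 3. For the 12 cyclin, kinase and APC/C genes it was 0.21, 0.30 and -0.03 in the vehicle libraries. Vehicle library 3, which was nearest to the CX libraries in these genes, also had the lowest erythroid and neutrophil markers of the vehicle libraries. CX library 3 held the highest CX value for 40 of 42 members, and the share of all genes highest in that library was not counted. The lists of erythroid and neutrophil markers had median log2 fold changes of -5.57 and -1.94 in p53WT AML at 10 h. Of their genes, 10 of 15 and 10 of 14 were called lower by edgeR's quasi-likelihood test, against 4.32% of all genes. Their medians were -0.12 (6 of 15 listed) and -0.02 (14 of 14 listed) in the authors' deposited p53null table, with 0 called by its FDR and 0 and 1 at an unadjusted p under 0.05. In p53WT AML at 10 h, B cell and macrophage markers had medians of -1.82 (5 of 7 listed) and -0.74 (9 of 9 listed), with 1 and 2 called lower. The median of the AML markers was 0.13, with 7 of 10 positive. When the erythroid level was added as a covariate, the members' median in p53WT AML was 0.05 instead of -0.11. The erythroid level was itself lower in every CX library than in every vehicle library. That fit called 0 of all genes lower and 19 higher. It cannot tell treatment from erythroid level, and the part of erythroid and neutrophil cells in the p53WT values was not tested. The members' median stayed between -0.15 and -0.08 when any 1 library was left out. The count of members called lower in p53WT AML was 0 without CX library 1, 2 or 3, where 1, 0 and 0 of all 12679 genes were called lower, so that these counts say nothing particular of the members. It was 1 without vehicle library 1, 2 without vehicle library 2 and 5 without vehicle library 3, where 6.79%, 5.24% and 6.63% of all genes were called lower. DESeq2 called 10 members and 10.6% of all genes lower.

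**Figure D4:**
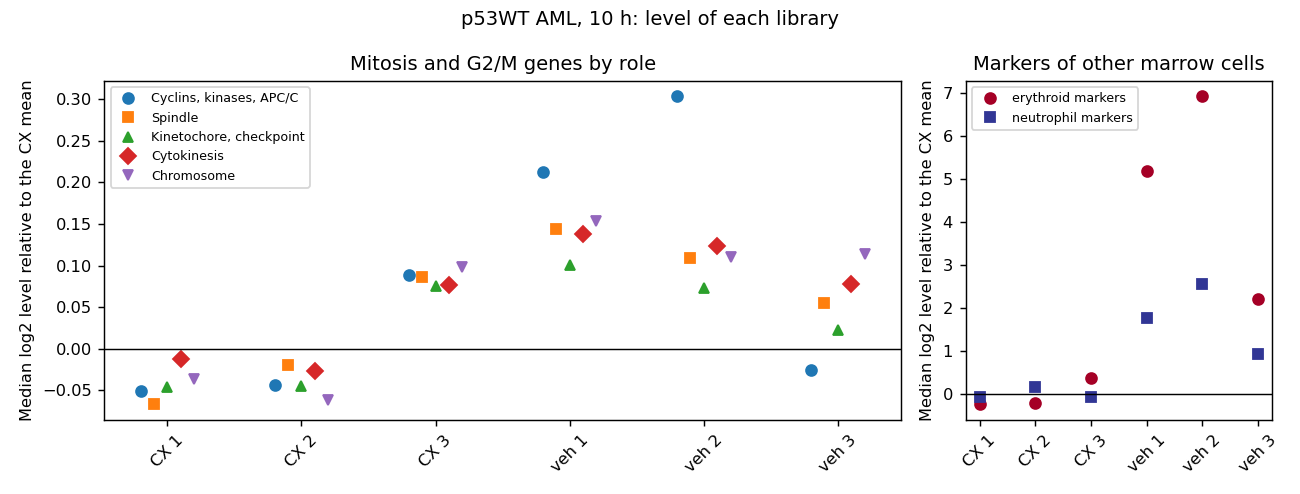
Median log2 CPM of each role and of the erythroid and neutrophil marker lists, relative to the mean of the CX libraries. Each library of p53WT AML at 10 h is shown. The medians of the roles lie between -0.07 and 0.30, while erythroid markers reach 6.93 in vehicle library 2.

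At 72 h in p53WT AML, few mitotic genes passed the test while many other genes did. The authors' deposited table called 1 member higher and 2 lower, against 16.1% and 15.1% of all genes. The member called higher was Psrc1. The members called lower in the authors' deposited table were Mad2l1 (log2 fold change -0.26, FDR 0.00927) and Kif23 (-0.25, FDR 0.028). The median over the members was -0.05 in the authors' deposited table, with 28 negative and 14 positive, beside a median of -0.01 and 51.3% negative over all genes. Nearest to the threshold in the authors' deposited table were Kif2c (-0.21, FDR 0.0521) and Ckap2l (-0.21, FDR 0.0597). Cyclins, kinases and APC/C genes had a median of -0.01 in the authors' deposited table, with 6 negative and 6 positive, from -0.07 to 0.16. Plk1 (0.16, FDR 0.210), Aurka (0.12, FDR 0.314) and Ube2c (0.09, FDR 0.454) were the highest of them in the authors' deposited 72 h table. Most erythroid and neutrophil markers ran the other way than at 10 h, with 9 of 15 and 12 of 14 called higher and 0 lower. Their medians were 1.18 and 0.96 in the authors' deposited 72 h table. The globin genes Hba-a1, Hba-a2, Hbb-bs and Hbb-bt stayed negative there (-0.23 to -0.09), as did the neutrophil marker Csf3r (-0.19). Of the 10 AML markers, 6 were called lower and 2 higher in the authors' deposited 72 h table, with a median of -0.28.

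A wider set of 100 genes of mitosis and the G2/M step, taken from complexes and regulators outside the 42 members, was read beside them. In the authors' deposited p53null table, 0 of 100 passed, 67 were positive and the median was 0.05, with 15 higher and 1 lower at an unadjusted p under 0.05 (3.15% and 2.92% of all genes). Motors and other spindle genes were nearest to the members, with 17 of 18 positive and a median of 0.13 in the authors' deposited table. In p53WT AML at 10 h, 4 of 100 were called higher by edgeR's quasi-likelihood test and 0 lower, against 3.78% and 4.32% of all genes. At an unadjusted p under 0.05 the counts were 9 higher and 16 lower, against 14.7% and 16.7% of all genes. The calls higher were thus at the background share. These 4 were Gtse1, a microtubule-binding p53 regulator (log2 fold change 1.22, adjusted p 0.00021), the motor Kifc1 (0.36, adjusted p 0.0373), the pocket protein Rbl2 (0.33, adjusted p 0.0213), a DREAM subunit, and Mybl2, B-MYB (0.21, adjusted p 0.0408). Gtse1 was at 140.7, 146 and 146 CPM in CX libraries, against 65.5, 60.1 and 59.6 CPM in vehicle libraries, with no overlap. At 72 h, 3 of the 100 were called higher and 10 lower in the authors' deposited table, below the 16.1% and 15.1% of all genes, with a median of -0.07. The lowest in the authors' deposited table were Cenpi (-0.47), Cdc16 (-0.38), Kif18a (-0.36) and Bora (-0.34), and Gtse1 was the highest (0.44).

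Some members have near-identical copies in the genome, over which reads can be split. Kpna2 shares 1824 runs of 50 bases with Gm10184 and 1396 with Gm10259, and Ccnb1 shares 832 with the pseudogene Ccnb1-ps. Gm10184 and Ccnb1-ps were themselves among the genes called higher in p53null AML (0.34 and 0.51 in the authors' deposited table), so that neither they nor Kpna2 and Ccnb1 can be counted as separate observations. In the authors' deposited tables Kpna2 averaged 415 CPM in p53null AML, against 158 CPM at 10 h and 357 CPM at 72 h in p53WT AML. Gm10259 had 2.27, 15.6 and 1.41 CPM there, in the same order of the authors' deposited tables. The part of read assignment in these levels was not tested. Cdc20 and Plk1 also have such copies, and without these 4 members 9 calls remained in p53null AML.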

How the data were processed

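The 18 libraries were grouped by the labelled genotype, time and treatment, 3 in each of 6 groups, and CX-5461 was compared with vehicle within each genotype and time. The submitters' processing notes name the tools HTSeq, Bowtie, CASAVA 1.8.2 and edgeR and the genome build mm9, with no settings or annotation. For each comparison the authors deposited, per the file headers, a log2 fold change, a log2 mean CPM, a p-value and an FDR from edgeR. Raw counts per gene were deposited by the authors for the 10 h comparison in p53WT AML (6 libraries). Their columns name the arm and a number from 1 to 3 and were assigned to groups, not to titled samples. Ensembl IDs were matched to symbols for 12237 of 12679 (p53WT, 10 h), 12366 of 12861 (p53null, 10 h) and 12362 of 12838 genes (p53WT, 72 h).

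Counts were normalised by TMM and tested over all genes with the two-sided quasi-likelihood test of edgeR 4.0.16 (R 4.3.3), with treatment as the only term and Benjamini-Hochberg adjustment at 0.05. CPM per library use the TMM-scaled totals, and log2 CPM a prior count of 2, which did not enter the log2 fold changes of the fit. The tables without counts could not be fitted, so their calls are the authors' FDR under 0.05, in place of the edgeR fit that would have been made on counts. The fit was tested on simulated data. Alternatives were DESeq2 1.42.0, limma 3.58.1 (voom), other scalings, filters and thresholds, an erythroid covariate (the mean log2 CPM of the erythroid markers) and leaving out each library.

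The members, lists and tests were chosen with earlier results of these data known. Genes were named by a rule: in each role the 3 with the smallest p, every member past the threshold in any table, both chromosome genes, and for other pathway genes those past the threshold, at most 4 per list. Others named were chosen after their values were seen. Copies were genes sharing at least 100 runs of 50 bases with a member in GENCODE transcripts. Motifs were searched in RefSeq promoters of GRCm38.p6. The labels do not say that the libraries of a group came from separate animals, so p-values measure the spread between these samples, which may be technical.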

Additional observations from a re-analysis of the deposited data

How the results depend on the processing

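In p53WT AML at 10 h, 1 member was called lower in the edgeR quasi-likelihood test. DESeq2 called 10 lower (10.6% of all genes), the authors' deposited FDR 2 (6.83%), a filter at a mean of 5 CPM 2 (6.32%) and the erythroid covariate 0 (0 of all genes), and leaving out 1 library gave 0 to 5 (0 to 861 of all genes). The members' median log2 fold change, -0.11, was 0.046 with the erythroid covariate, and -0.15 to -0.08 when 1 library was left out. Members negative were 35 of 42, 20 with that covariate, 30 with library size alone and 30 to 36 when 1 library was left out. Among the 24 named members, that covariate made the log2 fold change positive for Aurka (0.056), Ccnb1 (0.16), Ccnb2 (0.10), Cdc25b (0.76), Cdca3 (0.18), Cdk1 (0.17), Cenpa (0.13), Mad2l1 (0.14) and Ube2c (0.29), and library size alone that of Mad2l1 (0.035). Among the same 24, leaving out 1 library turned the sign of Ccnb1 (-0.13 to 0.0035), Cdk1 (-0.11 to 0.010), Kif20a (-0.12 to 0.0045) and Mad2l1 (-0.050 to 0.027), and none of these values passed. The cause was not tested, and the erythroid covariate itself parts CX from vehicle libraries. Over the 24 named members and 15 alternatives, 324 of 360 values kept direction and side of the threshold. Psrc1 stayed higher under all 15. At 72 h, 1 member was lower at an FDR of 0.01 and 4 at 0.1, in place of 2. In p53null AML the members called higher were 8 at an FDR of 0.01, 14 at 0.1 and 9 without members that have copies, in place of 11. With the p53null sign turned, all 42 would be negative there. This setting, the one on copies and the robust quasi-likelihood fit were chosen after seeing the data. No paired analysis was possible because the count columns carry numbers that are not those of the titles. Libraries could not be left out of the p53null and 72 h comparisons, which were analysed without counts. The depth behind the p53null and 72 h values is unknown, and 3 libraries per group limit the precision of all values.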

Other observations

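Besides the members, 8 genes were called higher and 5 lower in p53null AML at 10 h, named here after their values were seen. Those higher in the authors' deposited table were Arl6ip1 (log2 fold change 0.32), Hdc (0.34), the histidine decarboxylase gene, Cip2a (0.31), an inhibitor of the phosphatase PP2A, Tubb4b (0.31), a beta-tubulin, Rdm1 (0.50), mt-Rnr2 (0.35), the mitochondrial 16S ribosomal RNA, and the copies Ccnb1-ps (0.51) and Gm10184 (0.34). Those lower in the authors' deposited table were Angpt1 (-0.88), the TIE2 ligand, Insm1 (-0.93), Dusp2 (-0.43), Gnpda2 (-0.47) and Ung (-0.43), the uracil DNA glycosylase.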
